A study of Mus musculus with 2 samples.

Results

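The urea cycle and amino acid catabolism were followed through 9 genes of the array chosen by gene name, with earlier results of these data known: *Cps1*, *Otc*, *Ass1*, *Asl* and *Arg1* of the urea cycle, *Tat*, *Tdo2* and *Hpd* of aromatic amino acid catabolism, and *Sds* of serine catabolism. These names covered 12 of the 56605 probes and 9 of the 37074 gene names of the array. The values come from primary hepatocytes cultured from 2 genotypes of C57BL/6 background, which the submitters compared to describe gene expression altered by *Drp1* deletion. Control cells came from *Drp1* flox/flox mice, labelled wild type control, and *Drp1*LiKO cells from their Alb-Cre littermates with the same floxed alleles, in which an albumin promoter drives the Cre recombinase and confines the deletion mainly to hepatocytes. The age and sex of these animals and the number of animals behind a culture are not given in the sources used here. Cells were plated at 300000 per well in medium with 4500 mg/L glucose, 1 μM insulin, 2 mM L-glutamine and 10% serum, and were harvested 24 h after seeding. There was 1 array per genotype, so no test was possible, no p-value is given, and each ratio is that of 1 array to the other. Precision is limited by this number of arrays.

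Ammonia released from amino acids is toxic, and the liver disposes of it as urea. The cycle begins in the mitochondrial matrix, where *Cps1* and *Otc* act, and is completed in the cytosol by *Ass1*, *Asl* and *Arg1*. Hepatocytes also degrade amino acids for fuel and for gluconeogenesis, and several of these enzymes are induced by glucocorticoids and glucagon and restrained by insulin. In liver tissue the urea cycle is concentrated in the hepatocytes around the portal vein, while glutamine synthesis is confined to a rim around the central vein.

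Each probe is a 60-base oligonucleotide printed once, so the probe sequence defines what was measured. The sequences of 5 probes are shown, 3 of them because they carried or bounded the differences described here (*Arg1*, *Tdo2* and *Cps1*), 1 because it crosses an intron (*Hpd*) and 1 because it was not well above background (*Sds*). They are printed as deposited, 5′ to 3′, in lower case throughout, since no part of a probe was set apart.
Arg1: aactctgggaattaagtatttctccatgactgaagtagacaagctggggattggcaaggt
Tdo2: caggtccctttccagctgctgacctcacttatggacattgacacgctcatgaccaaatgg
Cps1: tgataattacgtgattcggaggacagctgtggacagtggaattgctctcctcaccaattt
Hpd: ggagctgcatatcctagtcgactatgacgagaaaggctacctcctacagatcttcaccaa
Sds: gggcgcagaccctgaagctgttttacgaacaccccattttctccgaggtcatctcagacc

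By the mm9 coordinates of the files, the *Arg1* probe (NM_007482) lies at chr10:24636194-24636253 on the minus strand and begins at base 674 of its transcript. The *Tdo2* probe (NM_019911) lies at chr3:81765359-81765418 on the minus strand, and the *Cps1* probe (NM_001080809) at chr1:67276029-67276088 on the plus strand. The *Hpd* probe (NM_008277) spans chr5:123622237-123624360 on the minus strand, 2124 bases for a 60-base oligonucleotide, so its target lies across at least 1 intron. The *Sds* probe shown (NM_145565) lies at chr5:120933105-120933164 on the plus strand. All are exonic in that they match named transcripts. Exon numbers and untranslated regions were not analysed here.

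After scaling, 7 genes were brighter in *Drp1*LiKO than in control cells, *Asl* had nearly the same signal in both, and *Sds* was not well above background in either. The largest differences were those of *Arg1*, 3.10-fold higher, *Tat*, 2.42-fold, and *Tdo2*, 2.08-fold, and the other 4 were between 1.38-fold and 1.57-fold higher. A log2 ratio is the *Drp1*LiKO minus the control log2 signal with each array set relative to its 75th percentile, a signal of 313 in control against 356 in *Drp1*LiKO cells. Each signal is given with the error that the scanner software estimates for its spot, and the errors of both spots were combined for each ratio. For the 8 measured genes this error was 0.20 to 0.23 on the log2 scale, and the noise expected from probes printed 10 times was 0.062 to 0.12. Neither holds the difference between animals or cultures. In bulk samples of this kind, fewer cells of a type and less RNA per cell cannot be told apart.

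**Figure D1:**
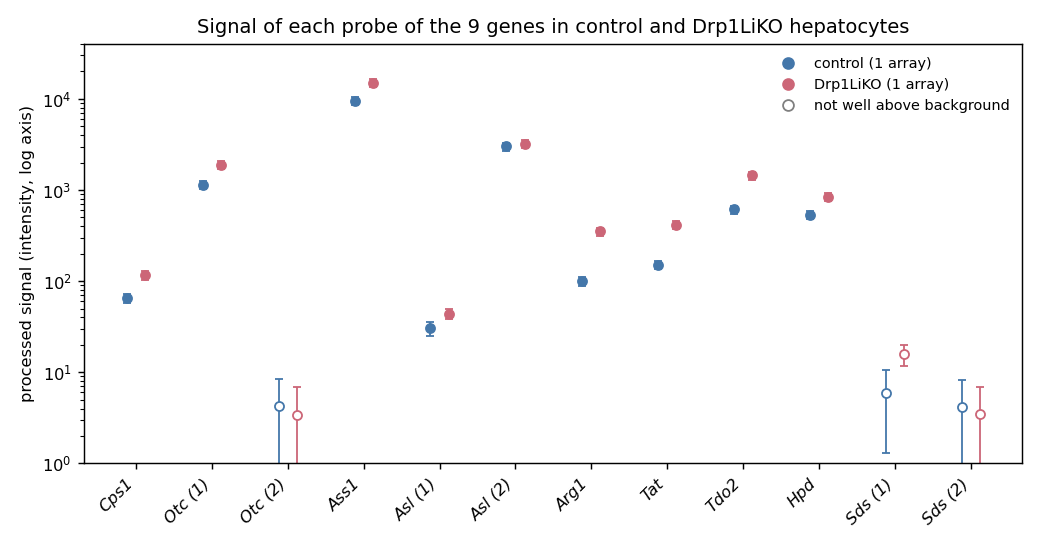
Processed signal (linear intensity drawn on a log axis) of the 12 probes of the 9 genes, before scaling between arrays, with 1 array per genotype. Bars are the spot error of the scanner software, and bars that reach below a signal of 1 are cut off by the axis. Open points, the second *Otc* probe and both *Sds* probes, are not well above background. The *Drp1*LiKO point lies higher for each filled pair, by the least for the brighter *Asl* probe, numbered 2.

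*Cps1*, the carbamoyl phosphate synthetase that commits ammonia to the cycle, had a signal of 65.4 ± 7.64 (spot error, 1 array) in control against 116 ± 12.1 in *Drp1*LiKO cells. The log2 ratio was 0.65 ± 0.23, or 1.57-fold, and 9.16% of detected genes had a higher ratio. The *Drp1*LiKO spot carried a mark for an unusual local background. *Otc*, which joins carbamoyl phosphate to ornithine in the same compartment, had a signal of 1131 ± 113 in control against 1887 ± 189 in *Drp1*LiKO cells at its probe for NM_008769 (chrX:9897267-9897326, plus strand). Its log2 ratio was 0.56 ± 0.20. A second *Otc* probe, designed for a predicted variant (XM_011247449), stayed at background with signals of 4.21 and 3.43. Both mitochondrial enzymes of the cycle thus were higher in *Drp1*LiKO cells by similar ratios, which differed by 0.091 with a combined error of 0.30.

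*Ass1*, which condenses citrulline with aspartate, had a signal of 9422 ± 942 in control against 15116 ± 1512 in *Drp1*LiKO cells at chr2:31376068-31376127 on the plus strand. The log2 ratio was 0.50 ± 0.20. The files list this probe (NM_007494) also with a second RefSeq transcript, which belongs to *Gm5424*, so the signal is not certain to come from *Ass1* alone. In the deposited normalized values the same probe had a log2 ratio of 1.29, the farthest departure from the scanner signals among these genes. *Asl*, which releases arginine and fumarate, stood apart from the rest of the cycle. Its brighter probe (NM_133768, chr5:130487513-130487736, minus strand) read 3008 ± 301 in control against 3202 ± 320 in *Drp1*LiKO cells, giving a log2 ratio of -0.093 ± 0.20. Its dimmer probe, for another transcript (ENSMUST00000162230), read 30.3 ± 5.00 and 43.8 ± 5.47, giving a log2 ratio of 0.35 ± 0.30. The sign for *Asl* therefore rested on the choice of probe, and it was above 0 with scaling to hepatocyte markers, with the deposited values and with the median of both probes.

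*Arg1*, the liver arginase that yields urea and returns ornithine to the mitochondrion, had the largest ratio of the 9 genes. Its probe read 99.8 ± 11 in control against 351 ± 35.3 in *Drp1*LiKO cells, giving a log2 ratio of 1.63 ± 0.22. Among detected genes, 2.27% had a higher ratio. *Arg1* lay above the other 4 enzymes of the cycle, whose ratios reached from -0.093 to 0.65. This gene is also expressed by alternatively activated macrophages. Of 12 Kupffer cell and macrophage markers, 11 were detected, and by their brightest probes all 11 were brighter in *Drp1*LiKO cells. Their median log2 ratio was 2.52, in which 2 ratios are bounds, although the other probe of *Csf1r* gave -0.017. Their unscaled signals summed to 4706 in control against 20483 in *Drp1*LiKO cells. *Timd4*, a marker of resident Kupffer cells, was not detected on either array. Of 4 markers of alternative activation, *Mrc1* was at least 2.45-fold higher, *Retnla* at least 2.90-fold lower and *Chil3* at least 2.33-fold lower in *Drp1*LiKO cells, all near background with signals of at most 50.7, and *Cd163* was not detected. The part of these cells in the *Arg1* signal was not tested.

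*Tat*, the aminotransferase that opens tyrosine breakdown, read 151 ± 15.8 in control against 416 ± 41.8 in *Drp1*LiKO cells (NM_146214, chr8:112523207-112523266, plus strand). The log2 ratio was 1.28 ± 0.21, and 3.58% of detected genes had a higher one. *Hpd*, the 4-hydroxyphenylpyruvate dioxygenase that acts after *Tat* in the same pathway, read 533 ± 53.5 and 836 ± 83.6, giving a log2 ratio of 0.47 ± 0.20. *Tdo2*, the dioxygenase that opens the tryptophan ring and feeds the kynurenine pathway, read 612 ± 61.4 and 1445 ± 145, giving a log2 ratio of 1.06 ± 0.20. All 3 aromatic enzymes were thus higher in *Drp1*LiKO cells, with *Hpd* less so than both enzymes that open a pathway. *Sds*, which deaminates serine to pyruvate, was not well above background on either array. Its probe for NM_145565 read 5.96 ± 4.66 in control against 15.9 ± 4.06 in *Drp1*LiKO cells, and its other probe 4.14 ± 4.15 and 3.46 ± 3.47, so no fold is given for it. The first of these *Drp1*LiKO signals exceeded its spot error and lay close to the lowest signal called well above background on that array, 15.0.

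**Figure D2:**
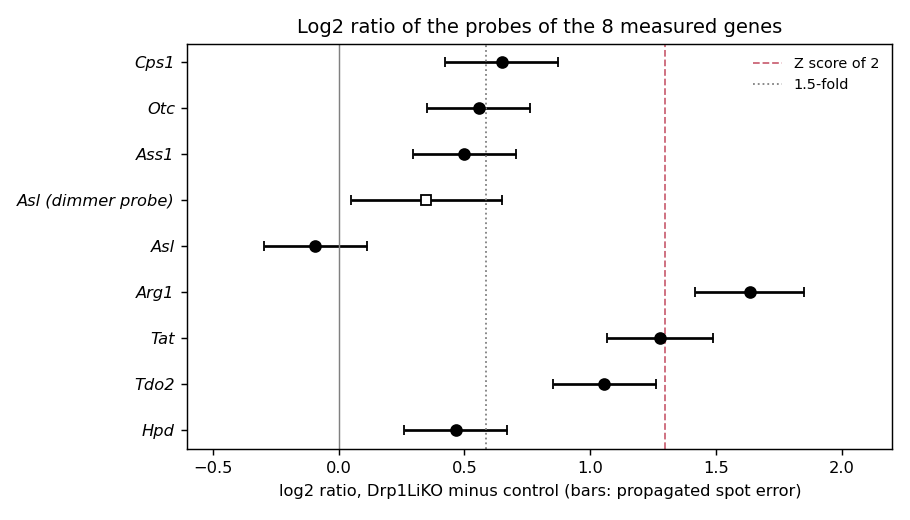
Log2 ratio (*Drp1*LiKO minus control, scaled arrays) of the 9 probes well above background, 1 per gene and 1 further probe of *Asl*. Bars are the combined spot errors, the dotted line marks 1.5-fold (a log2 ratio of 0.58) and the dashed line a Z score of 2 (a log2 ratio of 1.30). *Arg1* lies beyond the dashed line, *Tat* just short of it, and the bar of the brighter *Asl* probe crosses 0.

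In order of log2 ratio, *Arg1* and *Tat* differed by 0.36 with a combined spot error of 0.30. *Tat* and *Tdo2* differed by 0.22, less than their error of 0.29. *Tdo2* stood 0.41 above *Cps1*, with an error of 0.30. *Cps1*, *Otc*, *Ass1* and *Hpd* followed each other by less than their errors, and *Hpd* stood 0.56 above *Asl*, with an error of 0.29. As far as the spot error separates these 8 genes in this scaling, *Arg1* stood alone at the top and *Tat* and *Tdo2* lay next. Then 4 genes followed, and *Asl* stood alone at the bottom. These steps did not hold in every processing. With normexp background correction *Arg1*, *Tat* and *Tdo2* were closer, at 1.15, 0.98 and 0.98. In the deposited values *Tat* was at 1.47 and *Arg1* at 1.41, and *Ass1*, at 1.29, lay above *Tdo2*, at 1.09.

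Against the whole array, 705 of 20165 detected genes (3.5%) were higher by a Z score of at least 2, that is 2.46-fold, and 566 (2.81%) were lower by a Z score of -2 or beyond, 6.3% in either direction. *Arg1*, with a Z score of 2.51, was 1 of the 8 measured genes past this threshold, and *Tat*, with 1.97, lay just short of it. At the milder limit of 1.5-fold, 4 of the 8 genes (*Arg1*, *Tat*, *Tdo2* and *Cps1*) were higher, against 10.3% of detected genes, and none was lower, against 10.3%. With normexp background correction *Cps1* was at a log2 ratio of 0.32, short of this limit. The median log2 ratio of the 8 genes was 0.60, against -0.047 for all detected genes. The 5 enzymes of the cycle had a median of 0.56 and the 3 aromatic enzymes one of 1.06. Log2 ratios were above 0 for 7 of the 8, against 44.5% of detected genes.

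**Figure D3:**
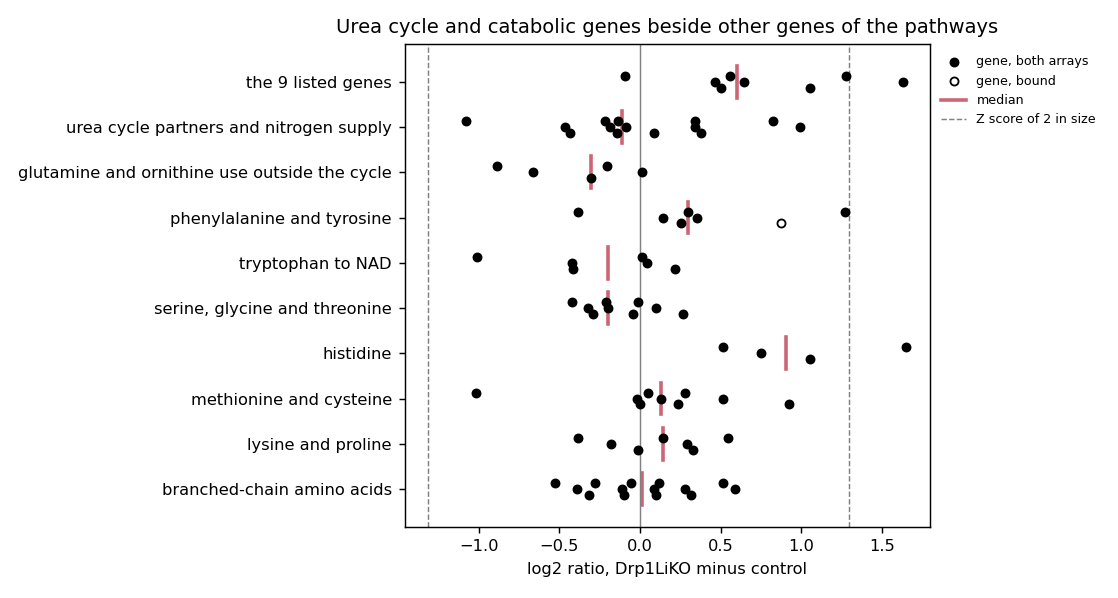
Log2 ratio (*Drp1*LiKO minus control) of each detected gene, for the 9 listed genes and for the other genes of these pathways by role. Each point is 1 gene by its brightest probe, open points are bounds, bars are medians, and dashed lines mark a Z score of 2 in size. The 4 histidine genes lie to the right of 0, while most other roles straddle it.

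The wider pathways did not shift as these genes did. Of 78 other genes of amino acid and nitrogen metabolism, 75 were detected, 39 higher and 36 lower, and their median log2 ratio was 0.013. At 1.5-fold, 9 were higher (12%) and 5 lower (6.67%), shares near those of all detected genes (10.3% each way), and by Z score 1 was higher, *Hal*, and none lower. Among the partners of the urea cycle, *Nags*, whose product N-acetylglutamate activates the *Cps1* enzyme, read 457 in control against 921 in *Drp1*LiKO cells, giving a log2 ratio of 0.83. *Gpt*, the alanine aminotransferase, had the highest ratio of these 14 genes, 0.99. *Glud1*, the mitochondrial glutamate dehydrogenase that releases ammonia, had the lowest, -1.08 at its brightest probe, but its probes reached up to 0.31. *Slc25a15*, which carries ornithine into the mitochondrion, was at 0.083. Partners of the cycle thus lay on both sides of 0, 6 higher and 8 lower.

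Genes that use glutamine and ornithine outside the cycle were mostly lower. Of 6, 5 were detected and 4 were dimmer in *Drp1*LiKO cells. *Oat*, which turns ornithine toward glutamate, was the lowest at a log2 ratio of -0.89, with signals of 2140 in control against 1310 in *Drp1*LiKO cells. *Glul*, the glutamine synthetase, was the highest at 0.013, although another of its probes gave 0.48. *Arg2*, the mitochondrial arginase, was not detected on either array, which leaves *Arg1* as the arginase measured here.

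Around the aromatic enzymes, 6 of 7 genes of phenylalanine and tyrosine metabolism were higher, and *Pcbd1*, which recycles a pterin cofactor, had the lowest ratio at -0.38. *Hgd*, which acts next after *Hpd*, was at least 1.83-fold higher, since its control signal was not well above background. Downstream of *Tdo2* the kynurenine pathway did not follow it: of 7 genes 6 were detected, 3 higher and 3 lower. *Kynu* had the lowest ratio, -1.01, and *Haao* the highest, 0.22. *Ido2*, another enzyme that opens the tryptophan ring, was not detected.

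Among the roles of these 78 genes, histidine breakdown was the one in which every measured gene was higher. *Hal*, the ammonia lyase that starts it, read 47.9 in control against 170 in *Drp1*LiKO cells, giving a log2 ratio of 1.65 and a Z score of 2.54. *Uroc1* followed with 1.05, *Ftcd* with 0.75 and *Amdhd1* with 0.51, the last with another probe at -0.11. Serine, glycine and threonine genes, the neighbours of *Sds*, had a median of -0.20, from *Amt* at -0.42, with another probe at -1.10, to *Sdsl*, a relative of *Sds*, at 0.27. In methionine and cysteine metabolism, *Bhmt*, which remethylates homocysteine, was at 0.92 and *Cbs*, which commits it to cysteine, at -1.02. Lysine and proline genes ranged from -0.38 for *Prodh* to 0.54 for *Pipox*. The probes of *Aass*, which starts lysine breakdown, disagreed, with the brighter at -0.18 and the other at 1.94. Genes of branched-chain amino acids, which the liver is slow to transaminate, ranged from -0.53 for *Ivd* to 0.59 for *Mccc1*.

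A list of 17 regulators held transcription factors and coactivators known for these genes, and also *Sirt3* and *Sirt5*, which are neither. *Sirt3* had a log2 ratio of 0.50 and *Sirt5* one of 0.47. *Ppargc1a* had the highest ratio of the 17. It encodes PGC-1α, a coactivator of fasting metabolism, and read 133 in control against 489 in *Drp1*LiKO cells, giving a log2 ratio of 1.69 and a Z score of 2.61, with its other probe at 1.80. *Klf15*, a regulator of amino acid breakdown in fasting, read 85.6 and 216, giving a log2 ratio of 1.16. The lowest was *Cebpa*, a factor required for urea cycle gene expression, at -0.36. The glucocorticoid receptor gene *Nr3c1* was at 0.091 and *Hnf4a* at 0.094. The median of the 17 was 0.091.

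Genes listed for a response to glucocorticoid or cAMP in liver, the signals that also induce *Tat*, *Tdo2* and *Cps1*, gave no single direction. Of 12, 5 were higher and 7 lower in *Drp1*LiKO cells, with a median of -0.20, and none passed a Z score of 2. *Pck1*, the gluconeogenic carboxykinase, was at least 1.95-fold higher, and *G6pc*, the glucose phosphatase, at least 2.07-fold lower, both near background. *Tsc22d3*, a direct glucocorticoid target, was at 0.71, and *Fgf21*, a fasting hormone, was the lowest at -1.13. The ratios of *Tat* and *Tdo2* lay above those of 11 of these 12 genes, and that of *Pck1* is a lower bound.

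**Figure D4:**
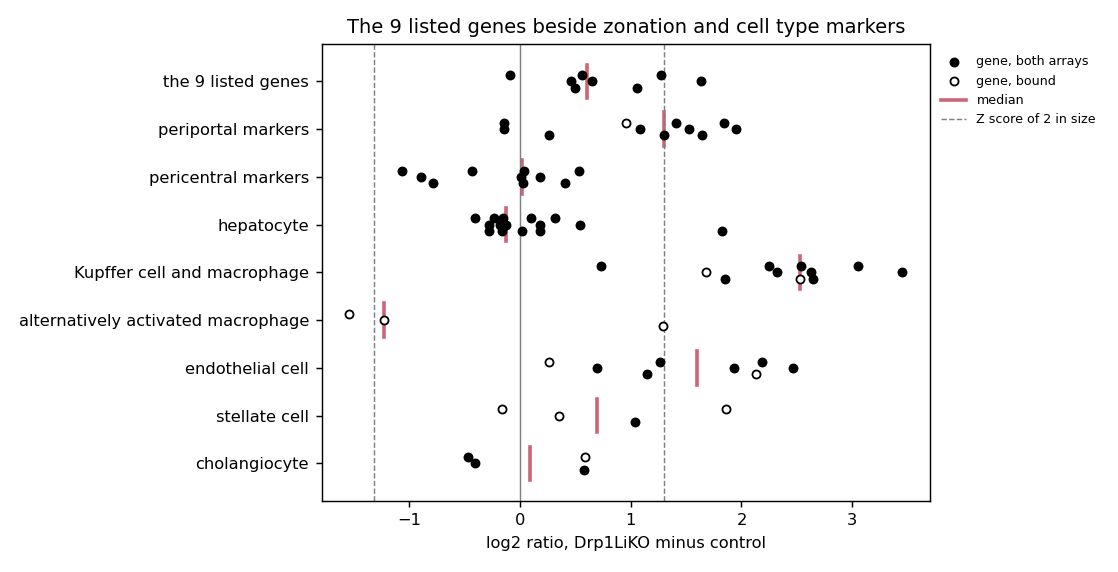
Log2 ratio (*Drp1*LiKO minus control) of each detected gene, for the 9 listed genes, for markers of liver zones and for markers of cell types. Points, bars and lines are drawn as for the pathways, with open points for bounds. Periportal markers have a median of 1.30 and pericentral markers one of 0.020, while most hepatocyte markers lie near 0 and macrophage markers between 0.73 and 3.45.

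Other genes of the periportal hepatocyte were higher as well. From a list of 11 periportal markers that left out the 9 genes, all were detected, 9 were brighter in *Drp1*LiKO cells and 6 passed a Z score of 2, against 3.5% of detected genes. The median log2 ratio was 1.30. *Hsd17b6*, an oxidoreductase of steroids, was the highest with 1.95, from signals of 27.0 and 119. *Etnppl*, a phospholyase of phosphoethanolamine, was at 1.84 and *Hal*, counted above, at 1.65. *Cyp2f2*, a cytochrome P450 of periportal cells, read 9496 in control against 31002 in *Drp1*LiKO cells, giving a log2 ratio of 1.52. *Aldh1b1* was at 1.41 and *Hsd17b13*, a lipid droplet protein, at 1.30, with its other probe at 0.28. *Ctsc* was the lowest at -0.14, though another of its probes gave 0.61, and *Gls2*, the liver glutaminase, was also at -0.14. *Hal*, *Gls2* and *Sdsl* also stand in the lists above, and *Pck1* among the hormone-response genes.

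Pericentral markers differed in direction among themselves. Of 12, 10 were detected, with a median of 0.020, 6 higher and 4 lower, and none passed a Z score of 2. At 1.5-fold none was higher and 3 (30%) were lower, against 10.3% of detected genes each way. *Tbx3*, a target of Wnt signaling, was the lowest at -1.06, *Oat* followed at -0.89 and *Cyp2e1* at -0.78. *Lect2* was the highest at 0.53. *Lgr5* and *Axin2*, further Wnt targets, were not detected.

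The label of the cells was checked against markers. All 15 hepatocyte markers cleared background on each array, and their median log2 ratio was -0.12, 7 higher and 8 lower. *Alb* was at 0.098 and *Hpx*, the hemopexin gene, the lowest at -0.40. *Ahsg*, a serum glycoprotein, was the highest at 1.83, and the other 14 were at 0.54 or below. These values are those of the brightest probes. The probes of *Fga*, a fibrinogen gene, disagreed, with the brighter at 0.32 and the other at -1.76. Scaled to these markers, the median of the 8 measured genes was 0.73 in place of 0.60. All 8 endothelial markers were higher by their brightest probes, with a median of 1.60 in which 2 ratios are bounds. The probes of *Stab2* disagreed, reaching from -0.25 to 1.15. Of 6 stellate cell markers 4 were detected and 3 were higher, with a median of 0.70 in which 3 ratios are bounds. The remaining detected stellate marker, at -0.16, had its control signal raised to the floor, so its direction was not measured. Of 6 cholangiocyte markers 4 were detected, 2 higher and 2 lower, with a median of 0.089. Unscaled signals of the endothelial markers summed to 4123 in control against 8460 in *Drp1*LiKO cells. The stellate markers summed to 47.0 and 195, and the cholangiocyte markers to 29379 and 24885. Most of the endothelial sum was *Egfl7*, with 3773 and 6941, and most of the cholangiocyte sum *Spp1*, with 24719 and 20346. The part of other cells in the values of the 9 genes was not tested. The targeted gene, listed as *Dnm1l*, had a signal of 2602 in control against 1217 in *Drp1*LiKO cells at its brightest probe, giving a log2 ratio of -1.28, and its other probe gave -0.31.

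RefSeq promoter sequences (GRCm38.p6) were at hand for 5 of the 9 genes, *Otc*, *Ass1*, *Tat*, *Tdo2* and *Hpd*. Those of *Tat* and *Tdo2* are shown because these genes had the largest ratios among the 5. Each is the 250 bases before the annotated start, 5′ to 3′ on the strand of the gene, at chr8:109990186-109990435 (plus strand) for *Tat* and chr3:81975729-81975978 (minus strand) for *Tdo2*. Capitals mark matches to CCAAT or TATAAA on either strand.
Tat: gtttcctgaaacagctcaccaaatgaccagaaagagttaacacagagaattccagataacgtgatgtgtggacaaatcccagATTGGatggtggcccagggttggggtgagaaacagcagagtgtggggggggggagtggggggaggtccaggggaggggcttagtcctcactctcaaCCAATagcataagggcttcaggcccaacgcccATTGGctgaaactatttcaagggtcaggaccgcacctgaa
Tdo2: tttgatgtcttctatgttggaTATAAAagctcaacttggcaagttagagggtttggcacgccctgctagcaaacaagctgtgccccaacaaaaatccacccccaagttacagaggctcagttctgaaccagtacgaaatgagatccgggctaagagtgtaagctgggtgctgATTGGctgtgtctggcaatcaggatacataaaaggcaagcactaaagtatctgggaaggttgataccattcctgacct

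The letters CCAAT, the core of the CCAAT box, occurred in 2 of the 5 sequences, at 3 places in *Tat* and at 1 place in *Tdo2*, 78 to 74 bases before the start, and in 33.8% of 32851 RefSeq promoters of the same length. This motif was chosen after the sequences were seen. TATAAA occurred in *Tdo2*, 229 to 224 bases before the start, and in 12.4% of promoters. The letters TTGCNNAA of C/EBP factors (9.56% of promoters), TGACG of cAMP response elements (17.8%), AGAACA of the glucocorticoid receptor (16.1%) and CAAAGTCCA of HNF4 (0.384%) were searched on both strands too and found in none of the 5, and no motif overlapped another. These searches cover this window and these letters only.

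The order of the 8 genes held in part when the arrays were processed in other ways. *Arg1* had the highest ratio in all of these but the deposited values, in which *Tat* was at 1.47 and *Arg1* at 1.41. *Asl* had the lowest ratio in each.

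**Figure D5:**
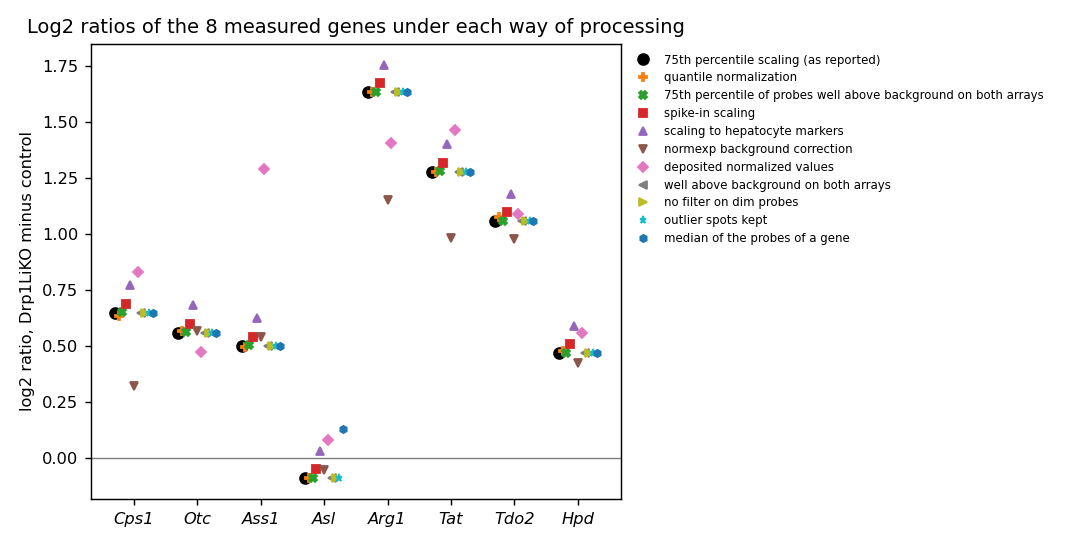
Log2 ratio (*Drp1*LiKO minus control) of the 8 measured genes as reported (black circles) and under 10 other ways of processing the same arrays, 1 symbol each. *Arg1*, *Tat* and *Tdo2* stay above 0.97 throughout, *Asl* lies between -0.093 and 0.13, and *Ass1* reaches 1.29 in the deposited normalized values.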

How the data were processed

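RNA of 1 control and 1 *Drp1*LiKO culture was labeled with Cy3 and hybridized to 1-color Agilent arrays for mouse. The authors deposited, per array, Feature Extraction output (version 9.5.1.1 in the submitters' processing notes, another version in the file headers) with the raw and the background-corrected intensity of each spot, and a table of normalized intensities by a method not given in the sources used here. The rank correlation of that table with the scanner signals across probes was 1.00 in control but 0.958 in *Drp1*LiKO cells, so it served only as an alternative.

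Control spots and spots with a feature outlier mark were removed. Log2 processed signals of repeated spots were averaged, and every value was set relative to the 75th percentile of its array. A probe was kept if either array had it well above background (30275 probes, 20165 gene names). Dimmer signals were raised to a floor, the lowest signal well above background (18.2 in control, 15.0 in *Drp1*LiKO cells), which makes their ratios bounds. A gene was its brightest probe. The Z score was taken over all kept probes (SD 0.65). The 9 genes and all lists were chosen with earlier results of these data known. Named genes were the 9 genes, *Dnm1l*, and of each role in the lists those past a Z score of 2, the highest and the lowest. *Slc25a15*, *Nags*, *Uroc1*, *Ftcd*, *Hgd*, *Klf15*, *Nr3c1*, *Hnf4a*, *Pck1*, *G6pc*, *Tsc22d3*, *Gls2*, *Cyp2e1*, *Aass* and *Fga* were added after their values were seen, as were genes named for not being detected. 1 gene that this rule names is not reported here. No test was run, since each genotype had 1 array. Spot averaging, the main scaling, ratios and Z scores were tested on a simulated second array made from the control array. The alternatives, the spot errors, the list counts and the motif searches were not part of that. The genes changed in the simulation were brighter than *Cps1*, *Arg1* and *Tat* were in control cells. The alternatives were quantile normalization, 3 other scalings, normexp background correction with an offset of 50, the deposited values, 2 other filters on dim probes, outlier spots kept, the median of the probes of a gene, and 2 other thresholds. Calculations used Python 3.11.15, numpy 2.4.6, pandas 2.3.3, matplotlib 3.10.9, R 4.3.3 and limma 3.58.1.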

Additional observations from a re-analysis of the deposited data

How the results depend on the processing

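No paired analysis was possible because there was 1 array per genotype. The alternatives for the periportal, pericentral, macrophage and histidine lists were chosen after seeing the data. Under 10 other ways of processing, *Arg1* stayed between 1.15 and 1.76, *Tat* between 0.98 and 1.47, *Tdo2* between 0.98 and 1.18, *Cps1* between 0.32 and 0.83, *Otc* between 0.47 and 0.68 and *Hpd* between 0.42 and 0.59, all above 0, and the median of the measured genes between 0.55 and 0.96, the last in the deposited values. That of the wider pathways stayed between -0.025 and 0.14.

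*Arg1* was past the threshold in every setting. With probes well above background on both arrays *Tat* joined it (2 genes), as with the deposited values (2), and *Tat* and *Tdo2* joined it with normexp, with no filter on dim probes and with a robust Z score, based on medians (3 each). At 1.5-fold there were 4. Of the wider pathways, normexp called 5 genes higher and 2 lower, the deposited values 2 higher, the filter on both arrays 2 higher, no filter 6 higher, the robust Z score 8 higher and 4 lower, and 1.5-fold 9 higher and 5 lower. Of all genes, no filter called 1355 higher (69.4% of calls against 55.5%, with a median of all genes of -0.47), the robust Z score 1722 higher and 1443 lower, and 1.5-fold 2085 higher and 2067 lower. A lower limit or a smaller spread calls more genes by construction. The periportal median was 0.88 with normexp, 0.89 with the deposited values and 0.96 with the median of the probes of a gene, and 4 to 8 of these markers passed the threshold. The macrophage median was 1.85 with normexp and 2.26 with the deposited values, and the pericentral median -0.21 with no filter. The cause of the other differences was not tested.

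Signal over background limits *Sds* and the second *Otc* probe, which were not well above background on either array.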
